A study of Mus musculus with 12 samples.

Results

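Tumors treated with doxorubicin (DOX) and a PD-1-blocking antibody, the DOX/anti-PD-1 group (also called the combination), were compared with tumors of mice given only the IgG1 isotype control antibody. The 6 tumors were chosen by their treatment labels, 3 of each group, out of 12 sequenced tumors. All mice were female MMTV-PyMT mice on a C57BL/6 background, in which the polyoma middle T oncoprotein is driven by the MMTV promoter in mammary epithelium and mammary carcinomas arise spontaneously. RNA came from whole tumors, so epithelial, stromal and immune cells were measured together. Antibody treatment of the IgG1 group began at a tumor diameter of 0.6 cm with 20 mg/kg, followed by 10 mg/kg up to day 18. The DOX/anti-PD-1 group began at 1 cm and received 5 mg/kg DOX weekly for 5 weeks, each dose followed by 10 mg/kg anti-PD-1, while the labels give 5 weeks for both groups. The remaining tumors, 3 given anti-PD-1 alone on the IgG1 schedule and 3 given DOX with IgG1 on the DOX schedule, are set beside them, and their differences in single genes were not tested outside the interaction. Drug, antibody, antibody dose, schedule and starting tumor size all differ between the main groups, so their contributions cannot be told apart. The age of the mice at collection was not given in the sources used here.

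Doxorubicin is an anthracycline that traps topoisomerase on DNA and causes strand breaks, to which cells respond through p53 and its targets. PD-1 is an inhibitory receptor of activated T cells and some NK cells, and blocking it releases them from inhibition by the ligands PD-L1 and PD-L2. The combination is used to join direct damage to tumor cells with release of lymphocytes; the comparison asks which transcripts differ between tumors given both agents and tumors given neither.

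Levels are given as TPM, a share of all transcripts that is scaled for gene length, so that genes can be compared with each other. The deposited values of 21960 genes per tumor were log2(TPM + 1), and log2 differences and log2 fold changes both mean the difference of mean log2(TPM + 1), combination minus IgG1, which understates the change of genes with low TPM. Each tumor's listed TPM added up to no less than 609418 and no more than 725506. Sequencing depth is unknown because this unit retains no counts, and a gene listed at 0 can be a failed estimate. The column headers of the 3 combination tumors end in a different digit from those of the other tumors, with a meaning not given, so a difference between the files cannot be told apart from the treatment. The labels number the tumors of a group without naming animals, so p-values measure the spread between these tumors. Across genes, which are not independent replicates, the correlation of tumors of different groups had a median of 0.956, beside 0.957 within IgG1 and 0.949 within DOX/anti-PD-1.

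No gene passed the test between DOX/anti-PD-1 and IgG1 tumors. With limma, 0 of 13774 genes (0%) reached an adjusted p below 0.1 with an absolute log2 fold change above 1. Before adjustment, 584 genes had a p below 0.05, with higher values under the combination for 389 and lower values for 195. The smallest adjusted p was 0.399, shared by 9 genes. All 3 DOX/anti-PD-1 tumors lay above all 3 IgG1 tumors in 909 genes (6.6%) and below them in 392 genes (2.85%). The median log2 fold change of all genes tested was 0.08, between -0.02 and 0.15 with 1 tumor left out. After scaling by the median of ratios the genes with a p below 0.05 were 301 higher and 348 lower, those without overlap 713 higher (5.18%) and 667 lower (4.84%), and the median was -0.0024. The excess of higher values therefore depends on the scaling and is not read as a direction, and the shares of 6.6% and 2.85% below are those without it. Leaving out 1 tumor gave 0 genes in 4 of the 6 cases, whereas 1 gene (Srp54a) passed without DOX/anti-PD-1 replicate 1 and 5 genes (Hist1h4k, Rps27rt, Hist1h2bk, Dmkn and Gm10269) passed without DOX/anti-PD-1 replicate 2, each of them lower and at 0 in both remaining combination tumors. Without the mean-variance trend in limma 2 genes passed, Gm10134 with higher and Agr2 with lower values, each at 0 in 1 group, so that both met the minimum of 1 TPM in 3 tumors only through the group where they are high, as 53 tested genes did. With neither trend nor minimum, an alternative chosen after the data were seen, 0 genes passed, with an adjusted p of 0.127 for Gm10134 and 0.132 for Agr2, and no difference is read from these calls. The names from fits with a tumor left out were taken after their values were seen. The genes described next are those with the smallest unadjusted p among genes whose groups did not overlap, so that the lack of overlap was a condition of their choice, and all of their values failed the adjusted test. Among them Agr2, Pagr1a, RP23-276M23.6, Tmsb15b1, 9030624G23Rik, Gm10134, Gm6096 and Cd300ld5 met the minimum only through the group where they are high.

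**Figure D1:**
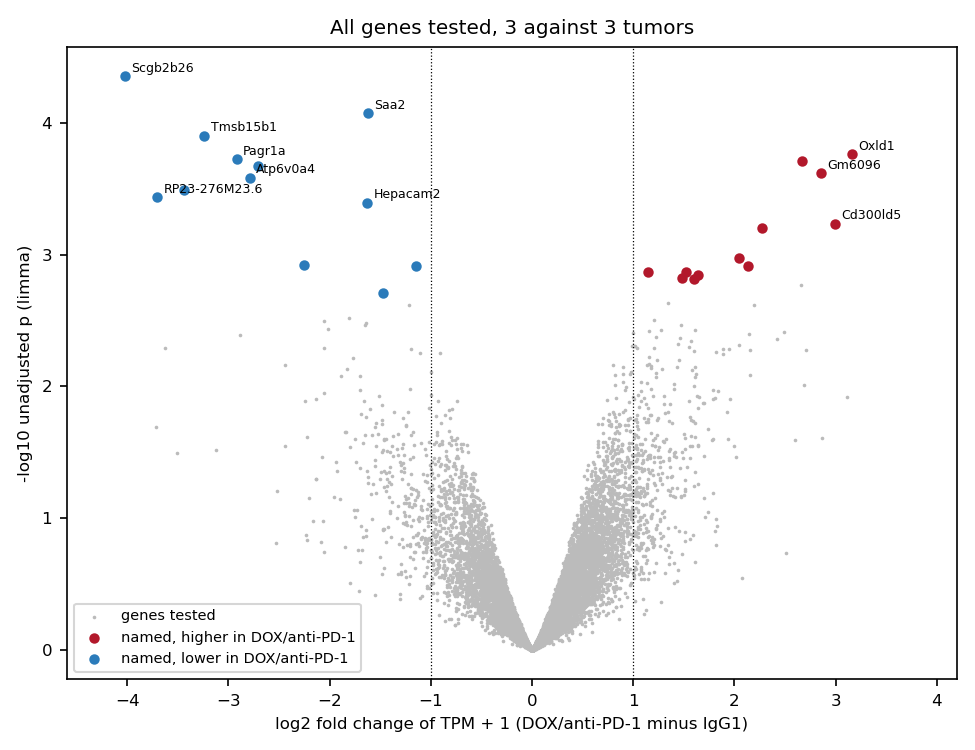
Each point is 1 of 13774 genes tested, with the log2 difference of DOX/anti-PD-1 from IgG1 tumors on the x axis and the -log10 of the unadjusted p from limma on the y axis. Named genes are colored by direction and dotted lines mark log2 fold changes of -1 and 1; 0 genes passed after adjustment.

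Of the lower genes, Saa2 (ENSMUSG00000057465, chromosome 7, 46751790 to 46754313, GRCm38), a serum amyloid A protein of the acute phase, was listed at 74.7, 64.9 and 71.6 TPM with IgG1 against 24.9, 23.1 and 19 TPM with the combination. The spread within each group was small, and every DOX/anti-PD-1 tumor had less than any IgG1 tumor. Means were 70.4 ± 4.99 and 22.3 ± 3.0 TPM (SD, n = 3), a log2 difference of -1.62 ± 0.26 (SE; limma adjusted p = 0.399). Saa2 measured 44.8, 27.8 and 71.5 TPM under anti-PD-1 alone, and 15.3, 9.19 and 9.12 TPM under DOX/IgG1. Saa1 (ENSMUSG00000074115, chromosome 7, 46740497 to 46742980), its neighbor on the other strand, had 132, 173 and 156 TPM with IgG1 against 37.3, 91.8 and 149 TPM with the combination, and its groups overlapped, a log2 difference of -0.92 ± 0.43 (SE). After DOX/IgG1, Saa1 was listed at 20.3, 30.5 and 12.4 TPM. Of the stretches of 75 bases in Saa2 transcripts, the length of a read, 17.8% also occur in Saa1, so reads could have been split between the pair and their separate values are uncertain.

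The likeness of the pair extends to the promoters, shown because both genes belong to the list with the lowest median. The RefSeq windows of 300 bases, 250 before and 50 after the start in GRCm38.p6, cover chr7:46742931-46743230 on the minus strand for Saa1 and chr7:46751583-46751882 on the plus strand for Saa2. Capitals mark the bases without an identical partner in the other promoter, 13 in each after global alignment, which leaves 287 identical bases (95.7%).
Saa1: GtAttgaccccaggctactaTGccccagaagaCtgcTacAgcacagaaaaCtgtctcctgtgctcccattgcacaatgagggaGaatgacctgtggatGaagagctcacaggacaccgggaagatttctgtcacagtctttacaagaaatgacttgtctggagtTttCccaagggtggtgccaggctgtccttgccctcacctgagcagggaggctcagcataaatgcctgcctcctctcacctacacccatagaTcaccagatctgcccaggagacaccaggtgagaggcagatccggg
Saa2: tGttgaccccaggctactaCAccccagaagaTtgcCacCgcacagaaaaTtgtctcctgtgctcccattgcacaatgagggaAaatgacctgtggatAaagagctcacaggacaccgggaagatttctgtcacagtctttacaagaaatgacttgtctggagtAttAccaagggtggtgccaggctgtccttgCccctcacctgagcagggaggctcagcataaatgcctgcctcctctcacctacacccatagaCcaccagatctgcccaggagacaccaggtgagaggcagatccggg
The letters GGACTTTCC, a motif of NF-kappa-B, and the core promoter motif TATAAA were searched on both strands and do not overlap each other. Both had 0 matches in this pair of windows. They occur in 0.344% and 13.6% of 32851 promoter windows of the same length, so most windows hold neither. Only these exact letters were searched and variant forms were not counted, so the lack of matches does not show that such sites are absent.

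Scgb2b26 (ENSMUSG00000066586, chromosome 7, 33943002 to 33945040), a secretoglobin, had the smallest unadjusted p and was listed at 12.7, 15.4 and 47.7 TPM with IgG1 against 0, 1.52 and 0 TPM with the combination. Under DOX/IgG1 it was at 0, 7.95 and 0 TPM. Agr2 (ENSMUSG00000020581, chromosome 12, 35992907 to 36004087), a disulfide isomerase of the endoplasmic reticulum in secretory epithelium, had 7.20, 5.47 and 4.25 TPM in IgG1 tumors and was listed at 0 in each of the 3 combination tumors. After anti-PD-1 alone it had 6.62, 5.94 and 18.3 TPM, and under DOX/IgG1 0, 5.66 and 1.37 TPM. Fam20a (ENSMUSG00000020614, chromosome 11, 109669749 to 109722279), a pseudokinase that aids phosphorylation of secreted proteins, was the most abundant of the lower genes. It had 237, 219 and 233 TPM with IgG1 against 103, 131 and 80.6 TPM with the combination, with means of 229 ± 9.45 and 105 ± 25.5 TPM (SD, n = 3) and a log2 difference of -1.15 ± 0.26 (SE). The DOX/IgG1 tumors had 82.2, 122 and 64.6 TPM and the anti-PD-1 tumors 296, 137 and 359.6 TPM.

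Hepacam2 (ENSMUSG00000044156, chromosome 6, 3457096 to 3498298), an adhesion protein of the immunoglobulin family, was listed at 28.7, 37.7 and 30.1 TPM with IgG1 against 8.63, 12.6 and 8.27 TPM with the combination, a log2 difference of -1.63 ± 0.32 (SE). For Atp6v0a4, a subunit of the vacuolar proton pump, the values were 8.64, 8.13 and 8.37 TPM with IgG1 against 0, 1.49 and 0 TPM with the combination, while DOX/IgG1 replicate 1 alone reached 169.8 TPM. Exons of Atp6v0a4 overlap those of other annotated genes. Mesdc2, a chaperone of lipoprotein receptors, had 97.5, 51.6 and 38 TPM with IgG1 against 17.5, 22.5 and 20.6 TPM with the combination, and 21% of its 75-base stretches lie in an overlapping gene as well. Mup5, a major urinary protein, had 12, 10.3 and 50.8 TPM with IgG1 against 2.11, 0.910 and 0 TPM with the combination, while DOX/IgG1 replicate 2 had 271 TPM. For the remaining lower genes, sequence shared with other genes makes the values uncertain. Such stretches make up 88.6% of Pagr1a, 95.1% of RP23-276M23.6, 49.6% of Tmsb15b1 and 11.6% of 9030624G23Rik, and their DOX/anti-PD-1 values were 0 in at least 2 tumors each.

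Of the higher genes, Apod (ENSMUSG00000022548, chromosome 16, 31296192 to 31314808), a lipid-binding lipocalin, had 80.6, 69 and 93.9 TPM with IgG1 against 236, 141 and 383 TPM with the combination. Every combined-treatment tumor exceeded every control, with means of 254 ± 122 against 81.2 ± 12.4 TPM (SD, n = 3) and a log2 difference of 1.53 ± 0.35 (SE; limma adjusted p = 0.924). Its DOX/IgG1 values were 63, 1002 and 705 TPM, with 1 tumor below all controls and the others far above them. Vhl (ENSMUSG00000033933, chromosome 6, 113623959 to 113631633), the substrate receptor through which hypoxia-inducible factors are degraded, had 12.6, 11.3 and 8.88 TPM with IgG1 against 32.3, 22.3 and 44.8 TPM with the combination, a log2 difference of 1.48 ± 0.35 (SE). It had 15.42, 20.95 and 23.56 TPM under anti-PD-1 alone and 25.67, 28.46 and 36.57 TPM under DOX/IgG1. Rnf31 (ENSMUSG00000047098, chromosome 14, 55591708 to 55603693), the catalytic subunit of the ligase that builds linear ubiquitin chains, had 27.9, 22.7 and 29.8 TPM with IgG1 against 68.9, 57.8 and 54.8 TPM with the combination, a log2 difference of 1.15 ± 0.26 (SE), and its exons overlap those of Irf9. Mid1, a ubiquitin ligase on microtubules, was listed at 16.9, 7.63 and 20.2 TPM with IgG1 against 36.6, 44.6 and 57.2 TPM with the combination, and 13.6% of its 75-base stretches occur in other genes.

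Kcnk2, a background potassium channel, had 1.26, 0.750 and 0.990 TPM with IgG1 against 7.66, 4.96 and 9.76 TPM with the combination, a log2 difference of 2.05 ± 0.46 (SE). Under anti-PD-1 alone Kcnk2 had 2.41, 2.66 and 2.28 TPM, and under DOX/IgG1 3.35, 11.55 and 14.62 TPM. Pde6d, a carrier of prenylated proteins, had 3.53, 2.67 and 1.85 TPM with IgG1 against 9.03, 17 and 28.8 TPM with the combination. For Opcml, an adhesion protein anchored to the membrane by a lipid, the values were 0.190, 1.38 and 0.610 TPM with IgG1 against 8.01, 5.67 and 5.39 TPM with the combination. Each of these genes was low in every IgG1 tumor and separated from the combined group. Amtn, a protein of tooth enamel matrix, had 8.09, 16.4 and 23.3 TPM with IgG1 against 49.2, 49.6 and 41.2 TPM with the combination, but 2.29, 501 and 426 TPM in DOX/IgG1 tumors. Oxld1 was listed at 0, 1.31 and 0 TPM with IgG1 against 18, 6.25 and 10.9 TPM with the combination. It had 5.25, 6.06 and 5.45 TPM under anti-PD-1 alone and 8.83, 5.44 and 6.5 TPM under DOX/IgG1. Gm10134, Gm6096 and Cd300ld5 were listed at 0 in all IgG1 tumors, and 100% of the stretches of Cd300ld5 occur in related genes of its family. Exons of Gm6096, Kcnk2 and Mid1 overlap genes on the opposite strand, and since the use of strand in counting is not given, these values are uncertain. With 1 tumor left out, the log2 fold change ranged over 1.17 to 1.89 for Apod, 1.24 to 1.73 for Vhl, -1.32 to -0.97 for Fam20a and -1.70 to -1.51 for Saa2.

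**Figure D2:**
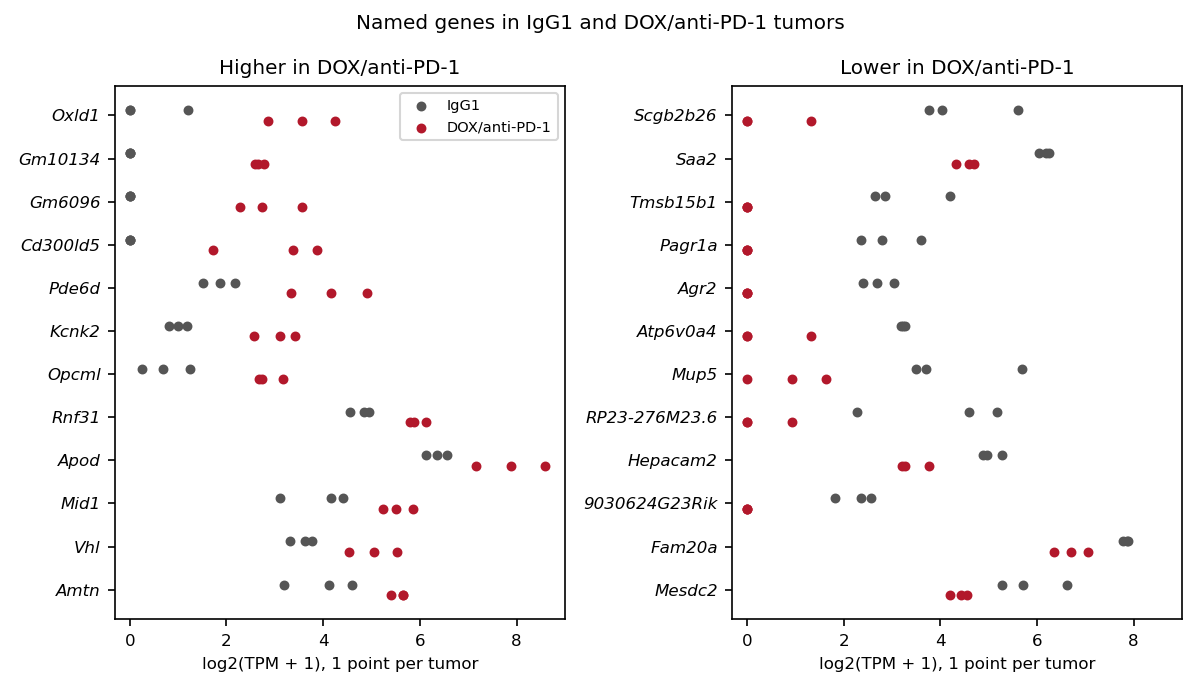
Each point is the log2(TPM + 1) of 1 tumor, gray for IgG1 and red for DOX/anti-PD-1, with 12 genes higher and 12 genes lower after combined treatment. The groups do not overlap in any row because that was a condition for showing the gene.

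Markers of cell types were followed because whole tumors were sequenced, and a lower value cannot tell fewer cells of a type from less RNA per cell. The label of mammary tumor was met by markers of luminal epithelium, whose 15 genes summed to 4571, 3521 and 4204 TPM with IgG1 against 4014, 3858 and 3008 TPM with the combination, with Epcam and Krt19 most abundant. Of these 15, 1 (Cldn4) lay higher in every DOX/anti-PD-1 tumor and 0 lay lower, beside 6.6% and 2.85% of all genes. Their median log2 fold change was -0.18 (-0.28 to -0.04 with 1 tumor left out), beside 0.08 for all genes. Epcam itself had 938, 846 and 954 TPM with IgG1 against 734, 920.1 and 468 TPM with the combination, so the groups overlapped. Basal and myoepithelial markers had a median of 0.51 (0.12 to 0.76 with 1 tumor left out), with 9 of 10 above 0, beside 58.9% of all genes, and 0 of 10 higher or lower in all combination tumors, beside 6.6% and 2.85%, and Acta2 was most abundant with 212, 76.8 and 178 TPM with IgG1 against 210.2, 208 and 293 TPM with the combination. Mylk, Acta2, Cnn1 and Myh11 had the largest log2 differences, 0.82, 0.71, 0.67 and 0.55. The keratins Krt5, Krt14 and Krt17 had 0.11, -0.36 and 0.46. The study stained alpha-smooth muscle actin, the product of Acta2, as a stromal marker, so this list is not specific to basal cells.

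Markers of muscle and fat varied widely within each group. The 15 skeletal muscle markers summed to 257, 75.2 and 929 TPM with IgG1 against 1742, 18.6 and 301 TPM with the combination, so that IgG1 replicate 3 and DOX/anti-PD-1 replicate 1 stood far above the others. Their most abundant gene, Myl1, had 38.9, 14.7 and 138 TPM with IgG1 against 258, 0.760 and 33.5 TPM with the combination. Without these 2 tumors, an alternative chosen after the data were seen, 3 genes passed the test (Srp54a and Gm20390 lower, Defb1 higher, named after their values were seen), each at 0 in both remaining tumors of 1 group. The 14 adipocyte markers summed to 335, 889.7 and 844 TPM with IgG1 against 1870.1, 676 and 773 TPM with the combination, with DOX/anti-PD-1 replicate 1 the highest and Car3 the most abundant. Adipoq, the adipocyte hormone adiponectin, had 16.5, 66.7 and 45.4 TPM with IgG1 against 177, 57.9 and 32.1 TPM with the combination. The median log2 fold change of the adipocyte list was 0.91 and moved between 0.21 and 1.28 with 1 tumor left out. None of these genes passed, and the part of muscle and fat in the other values was not tested.

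Fibroblast markers summed to 712, 844 and 1439.5 TPM with IgG1 against 946, 1065 and 832 TPM with the combination, and the groups overlapped. Postn, a matrix protein and the most abundant of them, had 437, 605 and 1008 TPM with IgG1 against 507, 603 and 322 TPM with the combination. Dcn (ENSMUSG00000019929, chromosome 10, 97479609 to 97518143), the collagen-binding proteoglycan decorin, instead had 95.4, 72.9 and 127 TPM with IgG1 against 205, 175 and 201 TPM with the combination. Among the 11 tested fibroblast markers 1 (Dcn) lay higher in every combination tumor and 0 lower, beside 6.6% and 2.85% of all genes. Their median log2 fold change was 0.39 (0.14 to 0.48 with 1 tumor left out). Dcn had means of 98.5 ± 27.2 and 194 ± 16 TPM (SD, n = 3) and a log2 difference of 1.00 ± 0.27 (SE; limma adjusted p = 0.993). After DOX/IgG1, Dcn had 76.8, 619 and 323 TPM. Among 38 tested collagens the median log2 fold change was 0.15 (0.03 to 0.18 with 1 tumor left out). Col1a1 and Col4a1 were most abundant, and Col1a1 had 432, 527 and 745 TPM with IgG1 against 219.6, 488 and 525 TPM with the combination. Col27a1, a fibrillar collagen, had 5.29, 2.92 and 3.15 TPM with IgG1 against 10.1, 12.5 and 13.6 TPM with the combination, 1 of 3 collagens (with Col23a1 and Col4a3) of the 38 that lay higher in every combination tumor, while 0 lay lower, near the 6.6% and 2.85% of all genes. It had the largest difference of the 3, a log2 difference of 1.47 ± 0.39 (SE).

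Lymphocyte transcripts were scarce in all tumors. The 14 markers of NK and cytotoxic cells summed to 20.8, 24 and 13 TPM with IgG1 against 29.5, 43 and 30.5 TPM with the combination. The sums did not overlap, and a two-sided exact permutation test reached its floor for 3 against 3, p = 0.1. Over the 51 lists examined this sum had an adjusted exact p of 0.816. Beside them, the sums were 12, 21.5 and 34.2 TPM after anti-PD-1 and 11.4, 75.5 and 70.3 TPM after DOX/IgG1. Of 9 tested members 0 lay higher and 0 lower in all combination tumors, where 6.6% and 2.85% of all genes did. Their median log2 fold change was 0.45 (0.33 to 0.83 with 1 tumor left out). It was above 0 for 6 members and below 0 for 3, beside 58.9% of all genes above 0. These 9 genes are too few to read a direction from. Xcl1, with the largest difference, had 0, 4.32 and 0 TPM with IgG1 against 3.99, 3.43 and 7.24 TPM with the combination. Klrd1, an NK receptor chain and the most abundant, had 0, 5.75 and 3.97 TPM with IgG1 against 3.86, 9.10 and 13.5 TPM with the combination. Gzmb, a granule protease, had 5.71, 4.34 and 2.24 TPM with IgG1 against 10.7, 4.01 and 0 TPM with the combination, Ncr1 had 1.84, 0.700 and 0 TPM with IgG1 against 1.29, 1.66 and 0 TPM with the combination, and Eomes and Ifng were listed at 0 in all 6 tumors.

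T cell markers summed to 47.2, 64.4 and 60.8 TPM with IgG1 against 56.8, 82.8 and 114 TPM with the combination, with Thy1, which fibroblasts also express, the most abundant. Cd3g, a chain of the T cell receptor complex, was listed at 1.56, 0 and 0 TPM with IgG1 against 7.56, 2.27 and 15.1 TPM with the combination (log2 fold change 2.49, standard error 0.67, adjusted p = 0.993 with limma). Its partner Cd3e had 14.6, 5.56 and 2.27 TPM with IgG1 against 3.31, 7.30 and 11 TPM with the combination, and Cd8a had 0.880, 1.04 and 1.73 TPM with IgG1 against 0.960, 2.46 and 0.870 TPM with the combination, both with overlapping groups. Of 10 tested T cell markers 1 (Cd3g) lay higher in every combination tumor and 0 lower, near the 6.6% and 2.85% of all genes. The target of the antibody, Pdcd1, was at 0, 0.520 and 0 TPM with IgG1 against 0, 0.830 and 0 TPM with the combination, below the minimum for testing. Its ligand gene Cd274 had 2.88, 3.01 and 1.70 TPM with IgG1 against 6.58, 4.78 and 3.67 TPM with the combination, a log2 difference of 0.76 ± 0.44 (SE). Of 12 tested checkpoint genes 2 lay higher and 2 lower in every combination tumor, beside 6.6% and 2.85% of all genes. Their log2 differences ran from -1.64 to 0.76, with 8 above 0, beside 58.9% of all genes, and 4 below 0. The sums of the checkpoint list overlapped, and its median of 0.10 changed sign (-0.07 to 0.22 with 1 tumor left out). No B cell marker reached the minimum. The 12 macrophage markers, led by C1qa, had a median log2 fold change of -0.09, which changed sign (-0.18 to 0.14 with 1 tumor left out), and 0 of 12 lay higher or lower in all combination tumors, beside 6.6% and 2.85% of all genes. Among 8 tested dendritic cell markers, 3 (Itgax, Clec9a and Flt3) lay lower in every combination tumor and 1 (Zbtb46) lay higher, beside 2.85% and 6.6% of all genes. Itgax, an integrin chain and the most abundant, had 21.8, 16.2 and 24.8 TPM with IgG1 against 14.2, 12.6 and 12.8 TPM with the combination, and Clec9a, a receptor of cross-presenting dendritic cells, had 6.86, 4.66 and 5.31 TPM with IgG1 against 2.80, 3.11 and 2.02 TPM with the combination. Zbtb46, a transcription factor of these cells, had 6.71, 4.97 and 7.20 TPM with IgG1 against 8.91, 9.02 and 7.50 TPM with the combination. Of the 8, 5 had a log2 difference above 0, beside 58.9% of all genes, and 3 below 0. Batf3, with the largest, had 0, 1.34 and 2.76 TPM with IgG1 against 8.83, 1.04 and 8.93 TPM with the combination. Clec10a had 4.85, 8.52 and 14.2 TPM with IgG1 against 12.1, 18.9 and 33.4 TPM with the combination. The groups overlapped for Batf3 and Clec10a. The median of the list was 0.25 (0.15 to 0.45 with 1 tumor left out), its sums of 49.1, 41.5 and 61.8 TPM with IgG1 against 55.1, 56.4 and 72.8 TPM with the combination overlapped, and none of its genes passed.

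**Figure D3:**
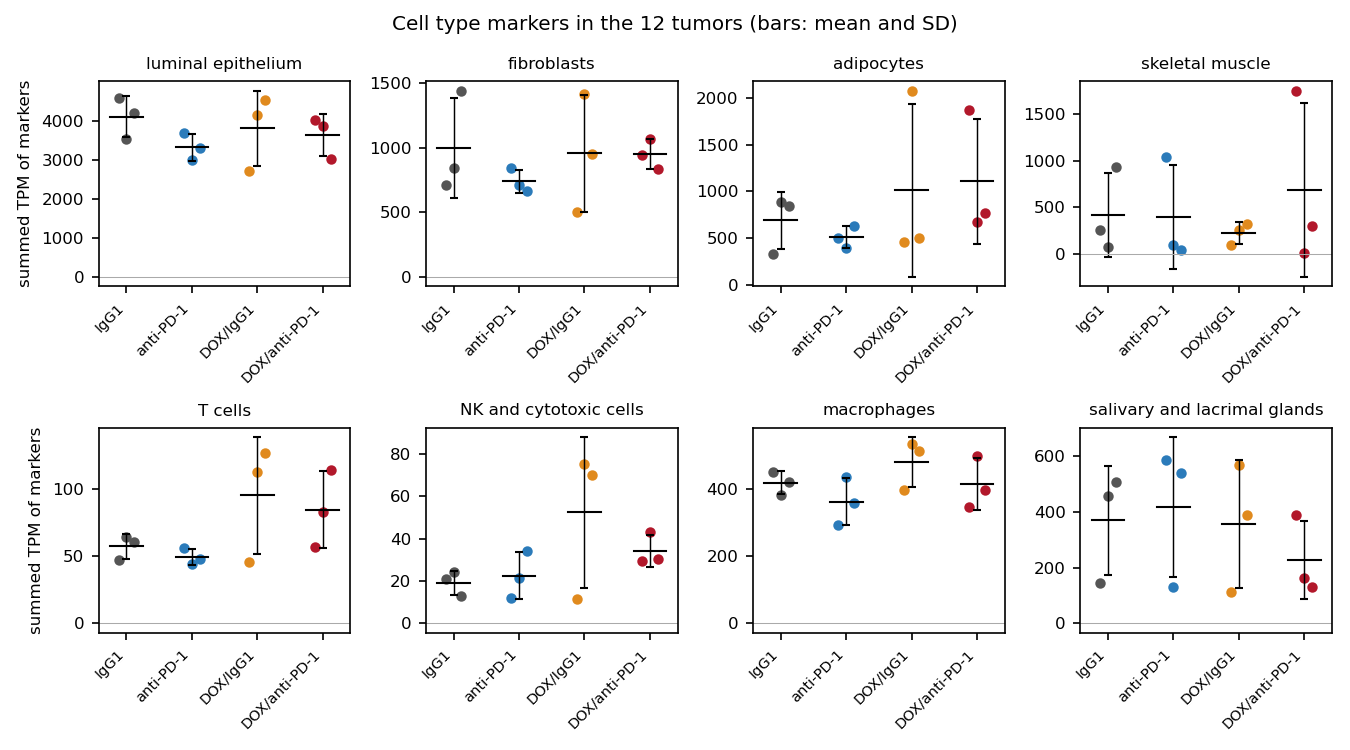
Each point is the summed TPM of the markers of 1 cell type in 1 tumor, for the 4 treatment groups, with bars for the mean and SD (n = 3). DOX/anti-PD-1 replicate 1 had the highest muscle and adipocyte sums of the IgG1 and DOX/anti-PD-1 tumors, and of the 8 lists shown only the NK and cytotoxic sums kept IgG1 and DOX/anti-PD-1 tumors apart.

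Damage and proliferation genes were examined because DOX acts on DNA. Among 28 tested p53 targets, 1 (Psrc1) lay higher in every combination tumor and 1 (Fas) lay lower, beside 6.6% and 2.85% of all genes, and their median log2 fold change of 0.15 changed sign, -0.02 to 0.29 with 1 tumor left out. Cdkn1a, the cyclin-dependent kinase inhibitor p21, had 15.2, 12.4 and 8.99 TPM in IgG1, 24, 13.7 and 67.6 TPM in DOX/anti-PD-1 and 54.8, 36.4 and 29.7 TPM in DOX/IgG1 tumors. Cdkn1a overlapped between IgG1 and the combination, a log2 difference of 1.18 ± 0.51 (SE). Mdm2, which degrades p53, had 42.1, 85.5 and 89.6 TPM with IgG1 against 78.4, 53.5 and 138 TPM with the combination. The DOX target Top2a was at 112, 128 and 131 TPM with IgG1 against 115, 155 and 60.1 TPM with the combination, and Akr1a1, a reductase, led its list with 238, 179 and 139 TPM with IgG1 against 284, 239 and 124 TPM with the combination. Of 25 replication genes 4 lay higher in every combination tumor and 0 lower, beside 6.6% and 2.85% of all genes, with a median of 0.31 (0.11 to 0.58 with 1 tumor left out). One of them, Rrm2, a subunit of ribonucleotide reductase, had 20, 26 and 30.8 TPM with IgG1 against 48.4, 48.7 and 33.9 TPM with the combination, while Pcna and Mcm7, the most abundant, overlapped. Of 25 mitosis and spindle genes 1 (Ccnb1) lay higher and 0 lower, beside the same shares, and their median of 0.18 changed sign (-0.08 to 0.43 with 1 tumor left out). Mki67, the most abundant of them, had 57, 152 and 98.1 TPM with IgG1 against 149.7, 89.4 and 33.9 TPM with the combination. In the repair list, Fancd2 had 1.65, 11.2 and 9.69 TPM with IgG1 against 35, 22.7 and 15.9 TPM with the combination, and 3 of 22 members lay higher in every combination tumor, beside 6.6% of all genes. The median of the repair list, 0.07, changed sign with scaling by the median of ratios and in fits on fewer tumors (-0.09 to 0.18 with 1 tumor left out).

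Genes of antigen presentation and interferon response followed. H2-D1, a class I molecule, had 713, 743 and 761 TPM with IgG1 against 1131, 1002 and 1298 TPM with the combination, a log2 difference of 0.62 ± 0.27 (SE). Nlrc5, the activator of class I genes, had 69.4, 105 and 158 TPM with IgG1 against 204, 171 and 202 TPM with the combination. The groups did not overlap for H2-D1, Nlrc5 and H2-K1, 3 of 14 members of the class I list, beside 6.6% of all genes that lay higher. The median of this list was 0.14 (0.07 to 0.35 with 1 tumor left out), and part of the H2-D1 sequence is shared with other class I genes. B2m, the most abundant class I list member, had 1951, 674 and 1379.6 TPM with IgG1 against 1741, 2344 and 451 TPM with the combination and overlapped. Of 27 interferon-stimulated genes 4 lay higher in every combination tumor and 0 lower, beside 6.6% and 2.85% of all genes, with a median of 0.25 (0.16 to 0.48 with 1 tumor left out). Mx1, a member of this list, had 7.79, 12 and 7.59 TPM with IgG1 against 18.5, 24.2 and 20 TPM with the combination, and 42.3, 12.1 and 18.3 TPM after anti-PD-1 alone. The class II list had a median of -0.07, which changed sign (-0.12 to 0.04 with 1 tumor left out), and Cd74 and Ctss were its most abundant genes. In the IL-12 family list 7 of 16 members reached the minimum and 0 of 7 lay higher or lower in all combination tumors, beside 6.6% and 2.85% of all genes. Il27 was listed at 0 in all 6 tumors, and Stat3 had 306, 285 and 234 TPM with IgG1 against 224, 218 and 375 TPM with the combination.

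The acute phase and unfolded protein response lists had the lowest medians. In the acute phase list the median log2 fold change was -0.45 over 15 tested genes, and between -0.69 and -0.23 with 1 tumor left out. Of the 15, 1 (Saa2) lay lower in every combination tumor and 0 higher, beside 2.85% and 6.6% of all genes. Cp and Lcn2, which bind copper and iron-loaded siderophores, were most abundant, and Lcn2 had 3062, 2881 and 2716 TPM with IgG1 against 2052, 2928 and 1556 TPM with the combination. The unfolded protein response had a median of -0.45, with 3 of 16 tested members lower in all DOX/anti-PD-1 tumors, beside 2.85% of all genes, and 0 higher. Xbp1, its transcription factor, had 779.6, 1019 and 860 TPM with IgG1 against 593, 718 and 544 TPM with the combination, and Dnajb9 had 126, 97.1 and 122 TPM with IgG1 against 85.2, 92.8 and 42.7 TPM with the combination. The chaperones Hsp90b1 and Hspa5, most abundant in the list, overlapped. Without DOX/anti-PD-1 replicate 3 the median of the unfolded protein response was -0.13.

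The 20 genes of immunogenic cell death and danger sensing summed to 5202, 5101 and 5740.4 TPM with IgG1 against 4538, 4818 and 2976 TPM with the combination, without overlap (exact permutation test, two-sided p = 0.1, the smallest possible; adjusted exact p = 0.816 over the lists). The median log2 fold change of its 19 tested members was 0.10, close to 0 in some fits (0.01 to 0.24 with 1 tumor left out), with 11 above 0 (58.9% of all genes were), and 1 lay higher and 1 lower in all combination tumors, near the 6.6% and 2.85% of all genes. Calr, a chaperone that dying cells can expose, was the most abundant and had 3543, 2676 and 3151 TPM with IgG1 against 2204, 3156 and 925 TPM with the combination, with overlapping groups. The 19 genes of oxidative stress defense summed to 1381, 1190.3 and 1319 TPM with IgG1 against 1508, 1643 and 1868 TPM with the combination. These sums did not overlap before scaling (exact permutation test, two-sided p = 0.1, adjusted exact p = 0.816). After division by the median-of-ratios factors they overlapped. The 19 genes had a median of 0.27 (0.22 to 0.33 with 1 tumor left out). Among them Gpx1, a peroxidase that uses glutathione, had 176, 127 and 141 TPM with IgG1 against 246, 293 and 239 TPM with the combination, with means of 148 ± 25 and 259 ± 29.2 TPM (SD, n = 3). Its log2 difference was 0.82 ± 0.25 (SE; limma adjusted p = 0.993). Prdx1, the most abundant, had 473, 462 and 499.8 TPM with IgG1 against 487, 650 and 507 TPM with the combination. Across all 51 lists 4 sums did not overlap before scaling, and 0 of 880 tested list genes passed the adjusted test.

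**Figure D4:**
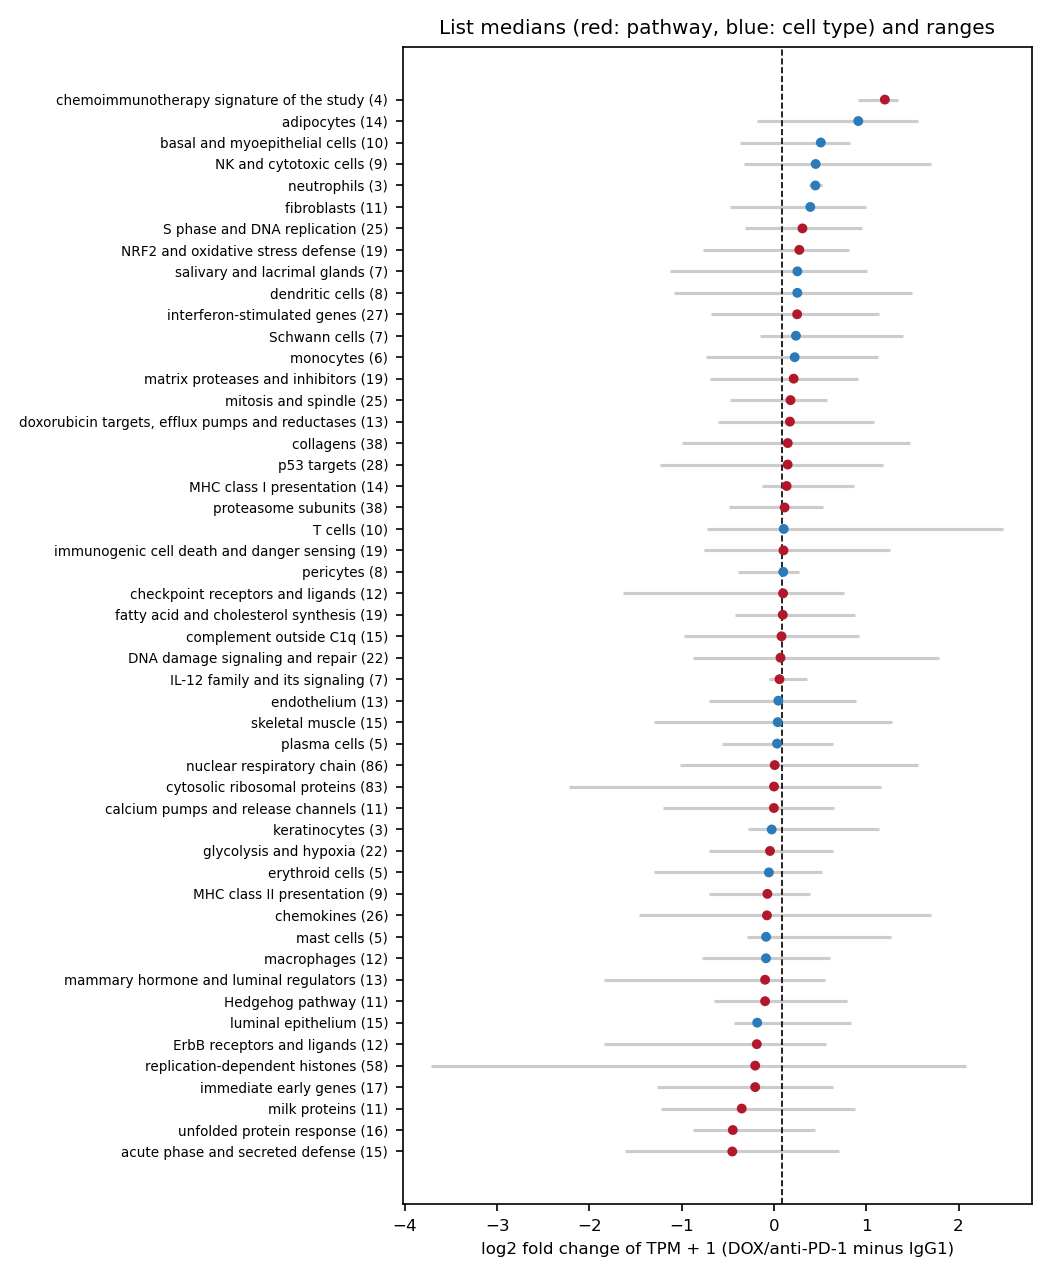
Dots give the median log2 difference of DOX/anti-PD-1 from IgG1 tumors over the tested members of each list, with gray lines from the lowest to the highest member and the number tested in brackets. The dashed line is the median of all 13774 genes, 0.08, and 25 lists had a median above it.

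The 4 signature genes Dio2, Gsn, Mmp3 and Pdk4 had been chosen by the study on DOX/anti-PD-1 tumors, so their direction here is not independent evidence. Dio2 (ENSMUSG00000007682, chromosome 12, 90724552 to 90738438), which activates thyroid hormone, had 1.78, 3.90 and 3.68 TPM with IgG1 against 6.26, 14.9 and 7.95 TPM with the combination and was the 1 of 4 that lay higher in every combination tumor, beside 6.6% of all genes. Its log2 difference was 1.34 ± 0.46 (SE), and an exon of another gene lies on its opposite strand. Gsn, the actin-severing protein gelsolin, had 55.6, 71.6 and 116 TPM with IgG1 against 253, 86.9 and 196 TPM with the combination, a log2 difference of 1.06 ± 0.41 (SE). Mmp3, a matrix protease, had 40, 27.6 and 75.7 TPM with IgG1 against 45.7, 127 and 99 TPM with the combination, and Pdk4, an inhibitor of pyruvate dehydrogenase, had 2.63, 1.71 and 5.90 TPM with IgG1 against 20, 2.92 and 12.4 TPM with the combination. None passed, each with an adjusted p of 0.993 from limma. Their values after DOX/IgG1 included the highest of all groups for Gsn, 77.3, 893 and 275 TPM.

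Whether the combination departed from the sum of its single treatments was tested as an interaction in all 12 tumors. Starting tumor size, antibody dose and schedule differed along with DOX, and the header digit differed for the combination alone. Their parts in the interaction cannot be told apart from treatment. Of 14735 genes, 1 passed (0.00679%), and 694 had an unadjusted p below 0.05. The gene was Bpifa2 (ENSMUSG00000042459, chromosome 2, 154008265 to 154016079), a secreted protein of salivary glands. It was listed at 0 in every IgG1, anti-PD-1 and DOX/anti-PD-1 tumor whereas the DOX/IgG1 tumors had 14.4, 21.3 and 53.7 TPM (log2 interaction -4.73, standard error 0.66, adjusted p = 0.0909 with limma). The call rests on values listed at exactly 0, and Bpifa2 met the minimum of 1 TPM in 3 of 12 tumors only through the DOX/IgG1 tumors, the group where it is high, as 19 genes did through 1 group. With no minimum, an alternative chosen after the data were seen, 3 genes passed, Bpifa2 (limma adjusted p = 0.0455), Smr3a and Pagr1a. With each of the 12 tumors left out in turn, Bpifa2 passed in 1 fit, without DOX/IgG1 replicate 1; the fit without DOX/anti-PD-1 replicate 3 called Hist1h2af instead, and the other fits called 0 genes. Some other salivary markers had higher mean values in the DOX/IgG1 tumors. Smr3a, at 0 in the 6 tumors of the main groups, had 0, 0 and 2.76 TPM under anti-PD-1 and 16.6, 10.2 and 14.8 TPM under DOX/IgG1, and its log2 interaction of -4.51 ± 0.73 (SE) did not pass with the minimum (limma adjusted p = 0.206). Amy1, a salivary amylase, had 21.1, 42.8 and 34.3 TPM under DOX/IgG1, 18.1, 4.85 and 7.32 TPM under anti-PD-1 and 5.24, 15 and 5.93 TPM with IgG1 against 14.8, 14.6 and 21.8 TPM with the combination. Dcpp1 had 8.0, 0 and 1.79 TPM under DOX/IgG1 and Dcpp2 0, 0 and 3.77 TPM, both were at 0 in the main groups, and under anti-PD-1 Dcpp1 was at 0 while Dcpp2 had 3.04, 0 and 0 TPM. Lpo, a peroxidase of saliva, did not follow them, with 0.760, 0 and 1.96 TPM under DOX/IgG1, 3.16, 4.86 and 1.09 TPM under anti-PD-1 and 0, 1.96 and 6.07 TPM with IgG1 against 7.23, 4.65 and 0 TPM with the combination. Car6, the most abundant marker over the 6 tumors of the main groups, did not share this pattern, with 13.3, 278 and 18.7 TPM under DOX/IgG1, 515, 89 and 447 TPM under anti-PD-1 and 92, 381 and 456 TPM with IgG1 against 303, 95 and 52.1 TPM with the combination. The 12 listed of its 14 markers summed to 113, 569 and 388 TPM under DOX/IgG1, 584, 129 and 538 TPM under anti-PD-1 and 145, 456 and 509 TPM with IgG1 against 387, 164 and 130.1 TPM with the combination. Of the 75-base stretches, 37.9% of Smr3a, 31.3% of Amy1, 34.8% of Dcpp1 and 32.4% of Dcpp2 also occur in other genes. The values of these markers are therefore uncertain. The part of salivary tissue in the interaction was not tested. For Saa2 the interaction was 1.60 (standard error 0.46), which did not pass.

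**Figure D5:**
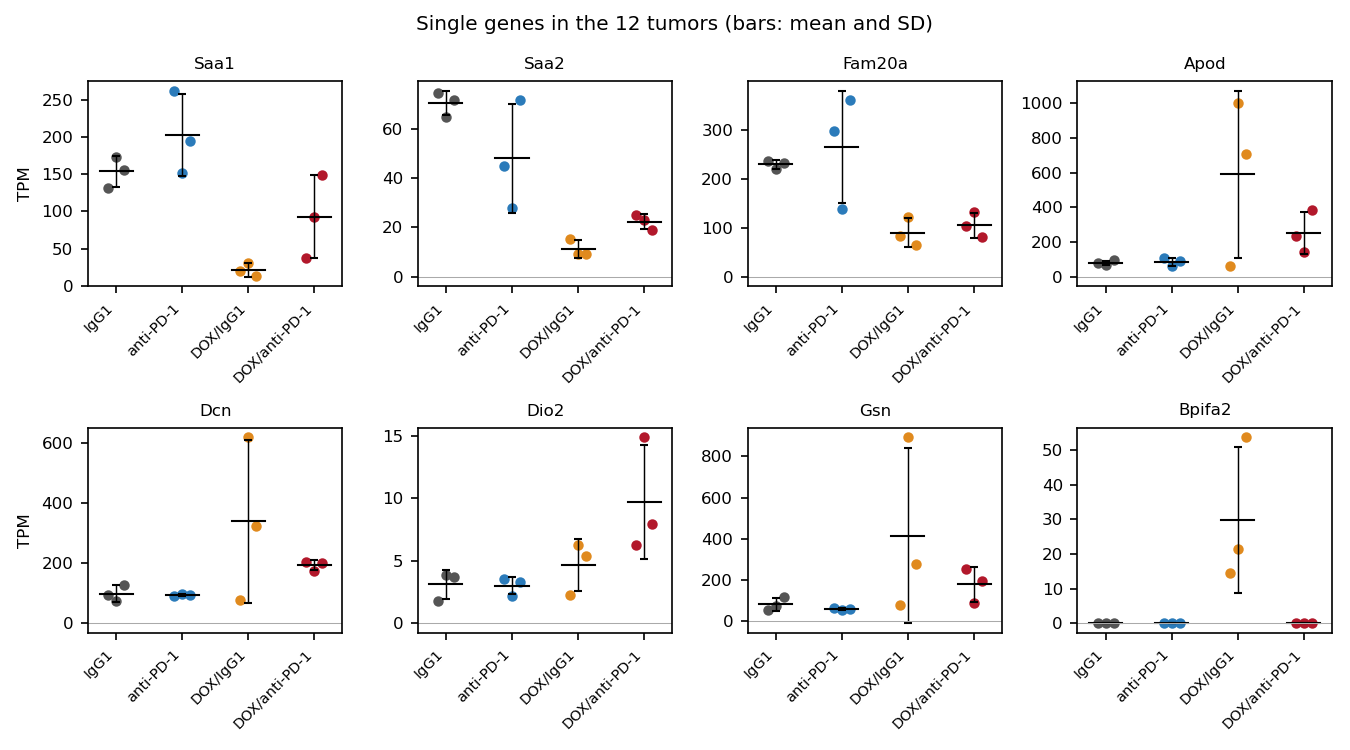
Points are the TPM of 8 genes in each of the 12 tumors, with bars for the mean and SD (n = 3). Saa2 and Fam20a were low in both DOX groups, Apod, Dcn and Gsn were spread widely in DOX/IgG1 tumors, and Bpifa2 was above 0 only in DOX/IgG1 tumors.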

How the data were processed

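The authors isolated RNA from whole tumors, prepared stranded total RNA libraries, trimmed reads with skewer, mapped them with STAR to the mm10 genome and used RSEM for gene levels. They deposited log2(TPM + 1), with decimal commas, for 21960 genes per tumor. The column headers of the DOX/anti-PD-1 tumors end in another digit than those of all other tumors. The same unit was taken for all. Whether quantification used strand is not given in the sources used here. The log2 step was reversed, and 21860 genes were matched to GENCODE vM21 for GRCm38 coordinates. Groups came from the labels. Members and gene lists were chosen with earlier results of these data known.

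Genes with at least 1 TPM in 3 or more of the 6 tumors were tested with limma 3.58.1 (R 4.3.3) on log2(TPM + 1), using eBayes with a trend. The two-sided p-values were adjusted by Benjamini and Hochberg's method over every gene tested. Called genes had to pass 0.1 after adjustment and differ by more than 1 on the log2 scale. The interaction used all 12 tumors and genes with at least 1 TPM in 3 of them. The fit was tested on simulated data, and no result given here rests on that.

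Where fewer than 12 genes were called in a direction, the named genes were filled to 12 with those of smallest unadjusted p, an absolute log2 fold change above 1 and groups without overlap. Members of lists, the signature genes and genes called in the interaction were added. Lists defined by the start of a symbol were limited to genes of that family. Summed TPM were compared with an exact permutation test. Alternatives changed the pseudocount, minimum, scaling, variance model, limits, block and tumors. No count-based test was possible from TPM.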

Additional observations from a re-analysis of the deposited data

Results flagged for a closer look

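Bpifa2 stood out because it passed the interaction test, where the difference between tumors with and without DOX depended on the antibody, with a log2 value of -4.73. Tumors with and without DOX also differed in starting size, antibody dose and schedule. It met the minimum of 1 TPM only through the 3 DOX/IgG1 tumors and was lost in most fits with 1 tumor left out, so the call is weak. DOX/IgG1 tumors had 14.4, 21.3 and 53.7 TPM, and all other tumors were listed at 0. Groups of 3 tumors were too small to test single tumors as outliers.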

How the results depend on the processing

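Between DOX/anti-PD-1 and IgG1 tumors the count of 0 genes was kept (smallest adjusted p from 0.119 to 0.987 with limma) with a pseudocount of 0.1 or 5, with other minimums, with scaling by the median of ratios, with all 12 tumors in the fit, with an adjusted p limit of 0.05 and with no fold limit. Without the mean-variance trend 2 genes passed, Gm10134 (higher) and Agr2 (lower), both of which met the minimum only through the group where they are above 0. With no minimum either, chosen after the data were seen, 0 genes passed (smallest adjusted p = 0.127 with limma). Leaving out 1 tumor gave between 0 and 5 genes, and leaving out the tumor with most muscle RNA from each group, chosen after the data were seen, gave 3. The cause was not tested.

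The replicate numbers name no shared animal or day, so they were not taken as pairs. Deviations of tumors with the same number correlated with r = 0.081, 0.014 and 0.140, beside -0.155 to 0.092 for tumors with different numbers. These values cannot exclude a shared factor. With the number as a replicate block 0 genes passed (smallest adjusted p = 0.929 with limma).

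For the interaction, the 1 gene was lost with the replicate block, with a pseudocount of 0.1 and with a minimum of 1 TPM in all 12 tumors, which excludes it (0 genes each), 3 genes passed with no minimum, chosen after the data were seen, and leaving out 1 tumor gave between 0 and 1 genes. With scaling by the median of ratios the medians of 7 lists changed sign, among them DNA repair and the IL-12 family, all within 0.1 of 0, and with each tumor left out in turn 29 of 50 list medians did not keep 1 sign. Of 28 named genes, a minimum of 1 TPM in all 6 tumors left 14 and of 5 TPM in 3 tumors left 21; each named gene kept its direction wherever it was fitted. The number of reads behind each TPM value is unknown, which limits the reading of genes at or near 0.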
